A study of Schizosaccharomyces pombe with 18 samples.

Results

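MBF is the transcription factor that switches on genes at the passage from G1 into S phase in fission yeast, *Schizosaccharomyces pombe*. The genes described here are 4 that encode parts of this factor (*cdc10*, *res1*, *res2* and *rep2*) and 6 of its known targets (*cdc18*, *cdt1*, *cdc22*, *cdt2*, *mik1* and *cig2*). They were chosen by name, as the probe sets whose gene symbol in the array annotation is one of these 10. Each of the 10 had 1 probe set, among 2937 named *S. pombe* probe sets in all. Total RNA was measured on Affymetrix Yeast Genome 2.0 arrays, labelled with biotin, from 18 cultures in 6 groups of 3. All cultures were of strain SP-Q01, of genotype h- leu1-32, and each carried a plasmid. The groups labelled *rpl32-1* carried the gene RPL3201 and the groups labelled *rpl32-2* carried RPL3202, which are paralogs for a ribosomal protein of the large subunit, while WT cells carried the empty plasmid. The labels name the plasmid pESP3, whereas the methods of the paper name pREP3X for overexpression. Cells grew in EMM2 medium at 30C and were taken at an OD600 of 10, early stationary phase, or of 0.5, log phase. The cultures were not synchronised, so for every level below fewer cells at G1/S and less RNA per such cell cannot be told apart.

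Cdc10 is the common subunit of MBF, and it pairs with the DNA-binding proteins Res1 and Res2. Rep2 is a coactivator that acts through Res2. The factor is held in check outside G1/S by the corepressors Nrm1 and Yox1, and the products of its targets start and guard S phase. Cdc18 and Cdt1 load the replicative helicase at origins, Cdc22 is the large subunit of ribonucleotide reductase, and Cdt2 is the adaptor that hands Cdt1 and the inhibitor Spd1 to a ubiquitin ligase. Mik1 is a kinase that restrains Cdc2, and Cig2 is the main S-phase cyclin. In fast-growing fission yeast S phase falls at about the time of septation, so genes for cell separation and MBF targets peak close to each other in the cycle.

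Values are log2 levels after quantile normalization of the arrays over the *S. pombe* probe sets, which gives all arrays 1 distribution. A level can be compared between arrays for 1 gene, not between genes. Changes, their standard errors (SE) and adjusted p values are from limma fitted over all 18 arrays and all 2937 probe sets, and a gene is called where it changed by 2-fold or more with an adjusted p under 0.05. The background of an array is set by its *S. cerevisiae* probe sets. Of the 10 genes, *cdc10*, *rep2*, *cdc22*, *cdt2* and *cig2* lay above it on all 18 arrays, *cdc18* and *cdt1* on 17, *res1* on 16, and *res2* and *mik1* on 12. On WT early stationary array 3 and on array 3 labelled *rpl32-1* in log phase, 21.7% and 18.7% of the *S. pombe* probe sets did not exceed background, and on the remaining arrays 0.715% to 4.70% did not. As deposited, the arrays fell into 5 sets by the shape of their distribution, and these sets ran across the groups. The probe set of *rpl32-2* did not follow the labels: it lay below the WT range of its phase on 6 arrays, of which 5 were labelled *rpl32-2* and 1 was labelled *rpl32-1*. The probe set of *rpl32-1* reached 14.11 to 14.37 on the 3 log phase arrays labelled *rpl32-1*, against 13.54 to 14.37 in WT log phase, and those ranges overlapped. On the early stationary arrays labelled *rpl32-1* it was 14.25, 13.55 and 11.68, against 13.48, 13.61 and 14.29 in WT, so that array 3 went against its label there.

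In WT cells, MBF targets and the coactivator gene *rep2* were lower at early stationary phase than during log phase, while *cdc10* differed by less than the spread between arrays. Of the 10 genes 6 were called lower and 0 higher, where 9.09% and 9.74% of all 2937 probe sets were called. The 6 were *rep2* and all targets other than *cdt2*. *mik1* counts here by its normalized values, which were not above background in early stationary phase. The median change of the 6 targets was −1.75 (log2), against −0.07 over all probe sets.

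Among the genes of the factor itself, *rep2* had levels of 8.40, 8.48 and 9.62 on the WT early stationary arrays, against 10.40, 10.25 and 10.17 on the WT log phase arrays. All 3 early stationary arrays lay below all 3 log phase arrays, as was so for 7 of the 10 genes and for 32.6% of all probe sets. The change was −1.44 (SE 0.29, limma adjusted p 0.00121), or 2.71-fold lower. *res1* had levels of 6.57, 6.69 and 5.17 in early stationary phase, the last not above background, against 7.84, 7.09 and 7.08 in log phase. These groups did not overlap either, but the change of −1.19 (SE 0.51) missed the threshold, with a limma adjusted p of 0.0719. *cdc10* had levels of 9.16, 9.36 and 10.17 in early stationary phase, against 9.31, 9.41 and 9.39 in log phase, so that the first group held both the lowest and the highest array. Its change of 0.19 had an interval of −0.25 to 0.64.

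*res2* was a case of its own, because a single array of weak signal decided its mean. Its levels were 6.98, 6.84 and 4.2 on the WT early stationary arrays, against 5.84, 6.36 and 6.41 in WT log phase. Arrays 1 and 2 were above every WT log phase array and array 3, on which *res2* was not above background, was below them all. The change was −0.20 (SE 0.63, limma adjusted p 0.824) with that array and 0.71 (SE 0.49, limma adjusted p 0.269) without it. Within sets of like distribution and on the deposited scale, *res2* was higher in early stationary phase by 1.29 in the first set (1 array against 1) and by 0.81 in the second (1 array against 2).

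**Figure D1:**
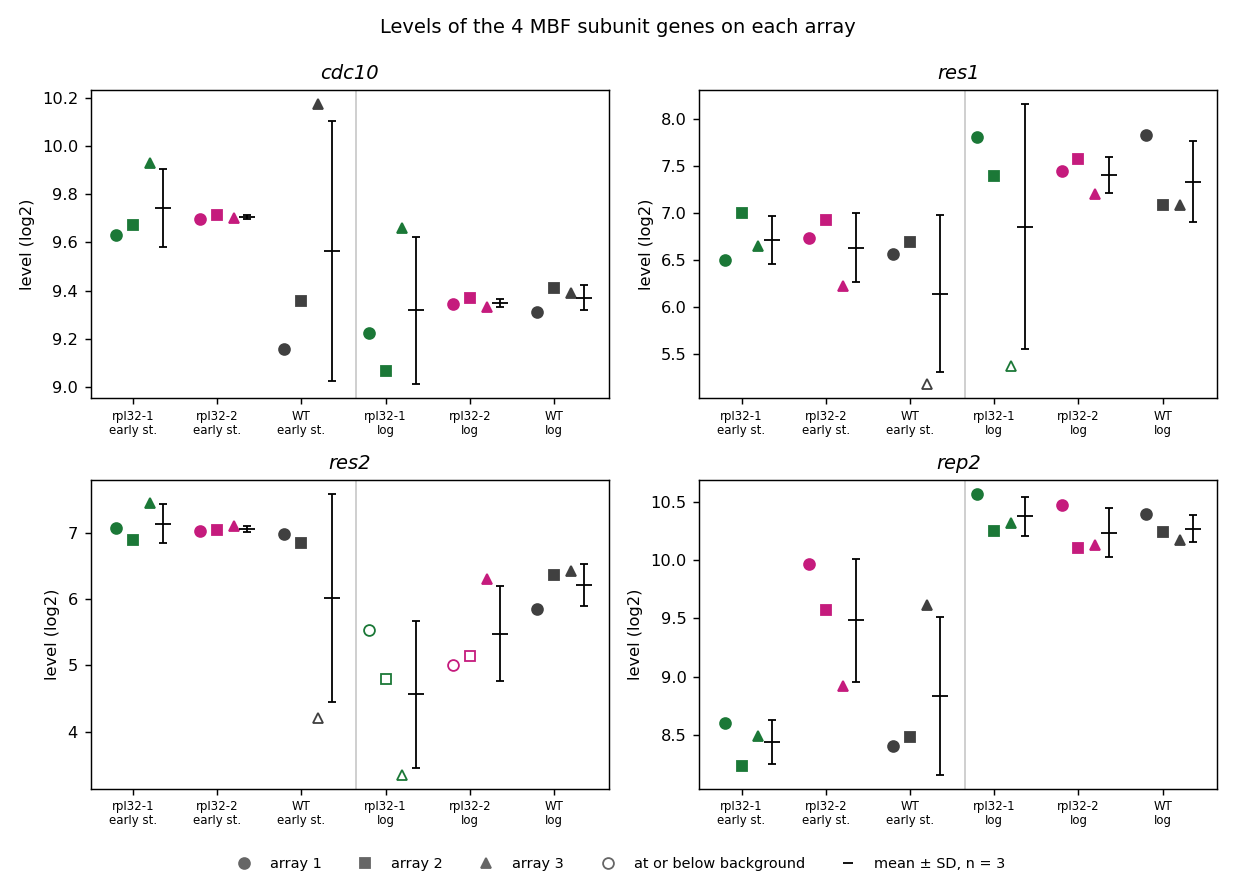
Levels (log2, quantile normalized) of *cdc10*, *res1*, *res2* and *rep2* on each of the 18 arrays, with early stationary groups on the left and log phase groups on the right. Filled symbols are above background and open symbols are not, and bars are the mean ± SD of 3 arrays. The 9 early stationary arrays lie below the log phase arrays for *rep2*, while *res2* is above its WT log phase range on 8 of them.

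The licensing genes were among the targets that fell furthest. *cdc18* had levels of 6.89, 7.20 and 7.22 in WT early stationary phase, against 9.34, 9.04 and 8.94 in WT log phase. The groups lay well apart, though *cdc18* was not above background on early stationary array 3. Its 7.22 there is thus not well measured. The change was −2.01 (SE 0.46, limma adjusted p 0.00267), or 4.02-fold lower, and ran from −2.09 to −1.89 with 1 array left out. *cdt1* had levels of 5.83, 6.11 and 7.88 in early stationary phase, against 8.38, 8.52 and 8.55 in log phase. Array 3, on which *cdt1* was not above background, stood nearer to log phase than arrays 1 and 2 after normalization, yet no array crossed over. As deposited it was instead the lowest of the group (6.45, 6.69 and 5.20), on an array whose median was also lowest (10.61, 10.30 and 8.55). Its normalized place is thus not a measured level. The change was −1.88 (SE 0.66, limma adjusted p 0.0314) and reached −2.51 without that array.

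*cdc22* and *cdt2*, whose products bear on nucleotide supply and on the removal of Cdt1 and Spd1, had the same array out of line after normalization. As deposited, that array was the lowest of the 3 for both genes (9.16 for *cdc22* and 6.58 for *cdt2*). Its median was the lowest too (10.61, 10.30 and 8.55 on arrays 1, 2 and 3). *cdc22* was above the median of its array on array 3 and below it on arrays 1 and 2 (10.01 and 9.65). *cdt2* was below the median on all 3 arrays, and least so on array 3. *cdc22* had levels of 9.32, 9.24 and 10.42 in WT early stationary phase, against 11.13, 11.24 and 11.21 in log phase, with no overlap and a change of −1.53 (SE 0.38, limma adjusted p 0.00503). *cdt2* had levels of 7.33, 7.21 and 8.84 in early stationary phase, against 8.85, 8.97 and 8.72 in log phase. Here array 3 lay inside the log phase range, and the change of −1.06 (SE 0.50) was not called, at a limma adjusted p of 0.102. Without array 3 it was −1.58 and was called (limma adjusted p 0.0185).

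The genes of the Cdc2 regulators also fell. *cig2* had levels of 7.97, 9.17 and 8.80 in WT early stationary phase, against 10.21, 10.56 and 10.34 in log phase. The groups did not overlap, and the change was −1.72 (SE 0.42, limma adjusted p 0.00412), or 3.31-fold lower. *mik1* had levels of 4.70, 4.13 and 5.24 in early stationary phase, against 6.37, 6.74 and 6.29 in log phase. It was above background on none of the 3 early stationary arrays, so its change gives only a bound. Set against the lowest signal above background on each of those arrays, *mik1* was at least 1.19-fold higher in WT log phase. The bound itself was not tested, and the limma adjusted p of 0.00392 belongs to the normalized change of −1.78.

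The scaling of the arrays bore on the call but not on the direction of the targets. On the deposited values, whose median over all probe sets was itself shifted by −0.65 between these groups, only *cdt1* of the 10 genes was called. Within the 2 sets of arrays that held both WT phases, the targets had a median difference of −1.97 and −1.66 on the deposited scale, where the medians of all probe sets were −0.05 and −0.06.

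**Figure D2:**
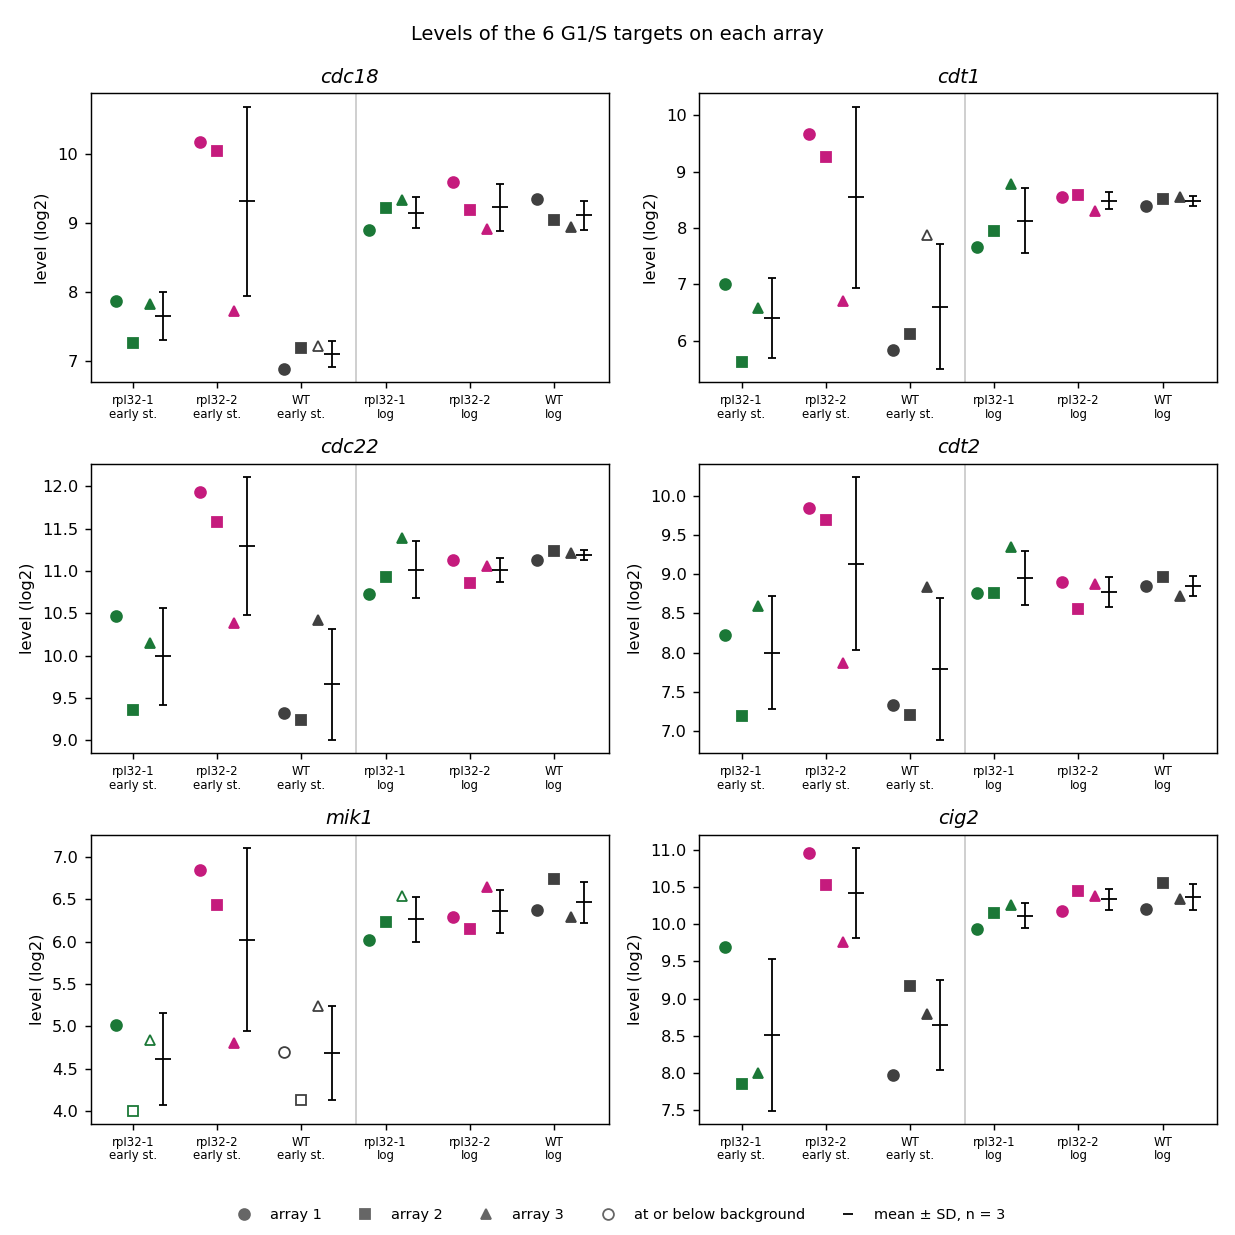
Levels (log2, quantile normalized) of the 6 targets on each of the 18 arrays, with early stationary groups on the left and log phase groups on the right. Filled symbols are above background and open symbols are not, and bars are the mean ± SD of 3 arrays. Arrays 1 and 2 labelled *rpl32-2* in early stationary phase lie at or above the lowest WT log phase array in every panel, and array 3 of that group lies below it.

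In early stationary phase the arrays labelled *rpl32-2* did not form 1 group for these genes. Arrays 1 and 2 held every target at the log phase level of WT cells or above it. Array 3 held them nearer to the WT early stationary mean, at a median of 0.37 above it. The fit over all 3 arrays called 0 of the 10 genes and 0 of the 2937 probe sets (percent called 0), with a smallest limma adjusted p of 0.0703 over all of them. At an unadjusted limma p under 0.05 with at least 2-fold, 6 of the 10 genes passed, all 6 of them targets, against 93 or 3.17% of all probe sets. *mik1* passed by normalized values only, as it was above background on no WT early stationary array. The median change of the targets was 1.70 and that of all probe sets −0.01.

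*cdc18* had levels of 10.16, 10.03 and 7.73 on the early stationary arrays labelled *rpl32-2*, against 6.89, 7.20 and 7.22 in WT early stationary phase. All 3 arrays were above the WT range, the first pair by far the most. The top of that range was WT array 3, on which *cdc18* was not above background. The change was 2.21 (SE 0.46, interval 1.23 to 3.18), with a limma adjusted p of 0.0916. *cdt1* had levels of 9.67, 9.26 and 6.70 on the arrays labelled *rpl32-2*, against 5.83, 6.11 and 7.88 in WT. Array 3 labelled *rpl32-2* fell inside the WT range only through WT array 3, on which *cdt1* was not above background. The change was 1.94 (SE 0.66, limma adjusted p 0.132).

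*cdc22* showed the same split, with 11.93, 11.58 and 10.38 on the arrays labelled *rpl32-2*, against 9.32, 9.24 and 10.42 in WT early stationary phase (change 1.64, SE 0.38, limma adjusted p 0.0916). *cdt2* had levels of 9.84, 9.70 and 7.86 on the arrays labelled *rpl32-2*, against 7.33, 7.21 and 8.84 in WT (change 1.34, SE 0.50, limma adjusted p 0.158). For both genes the groups overlapped only through the weak WT array 3, which was as high as or higher than array 3 labelled *rpl32-2*. As deposited, array 3 labelled *rpl32-2* was above every WT array for both genes. It had 10.63 for *cdc22*, against 10.01, 9.65 and 9.16, and 8.56 for *cdt2*, against 8.19, 7.81 and 6.58. The median deposited change over all probe sets was itself 0.65 between these groups.

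*cig2*, the cyclin gene, had levels of 10.96, 10.52 and 9.76 on the arrays labelled *rpl32-2*, against 7.97, 9.17 and 8.80 in WT early stationary phase. Its groups did not overlap, and the change was 1.77 (SE 0.42, limma adjusted p 0.0916). *mik1* had levels of 6.84, 6.43 and 4.80, all above background, on the arrays labelled *rpl32-2*, against 4.70, 4.13 and 5.24 in WT, all at or below it. No fold is given for *mik1* here, since the mean of the arrays labelled *rpl32-2* does not reach the bound of the WT arrays. The limma adjusted p of its normalized change was 0.12. In this comparison 3 of the 10 genes (*cdc18*, *cig2* and *res2*) were higher with no overlap between arrays, as were 5.82% of all probe sets.

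Taken array by array against the WT early stationary mean, all 6 targets were at least 2-fold higher on arrays 1 and 2 labelled *rpl32-2*, against 5.48% and 4.83% of all probe sets. On array 3 only *cig2* was, against 1.36% of all probe sets. For *mik1* this holds for normalized values only, since its WT levels were not above background and its fold is not measured. The targets had a median difference of 2.29, 1.91 and 0.37 on the 3 arrays. Set against log phase, array 1 had all 6 targets above the WT log phase range, and array 2 had *cdc18*, *cdc22*, *cdt1* and *cdt2* above it with *mik1* and *cig2* inside it.

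The result thus turned on array 3. With it left out, 6 of the 10 genes were called, namely the 6 targets, where 192 probe sets were called in all and 3.75% of them all were called higher. *mik1* again counts by normalized values that were not above background in WT cells. *cdc18* then differed by 3.00 (limma adjusted p 3.81e-06), *cdt1* by 2.86 (0.00204), *cdc22* by 2.09 (0.00118) and *cig2* by 2.10 (0.00498). Array 3 stood apart by the levels of these same targets. The p values without it thus overstate the evidence and are not an independent test. Leaving out array 1 or array 2 of the group gave 0 calls among the 10. When arrays were weighted by their fit, array 3 received a weight of 0.164 and WT early stationary array 3 a weight of 0.130. In that fit 7 of the 10 genes were called, the 6 targets and *rep2*, and it does not separate the parts of these arrays. By signal only the WT array was weak: 21.7% of the *S. pombe* probe sets did not exceed background on it. On array 3 labelled *rpl32-2* 0.715% did not, the lowest share of all arrays. Between arrays of 1 set, on the deposited scale, the targets had a median difference of 2.60 for array 1 labelled *rpl32-2* against WT early stationary array 1, and of 0.76 for array 3 labelled *rpl32-2* against WT early stationary array 2, with no replicate check in either.

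The genes of the factor moved less than its targets did on these arrays. *rep2* had levels of 9.96, 9.57 and 8.92 on the early stationary arrays labelled *rpl32-2*, against 8.40, 8.48 and 9.62 in WT (change 0.65, SE 0.29, limma adjusted p 0.224). As for the targets, arrays 1 and 2 were the high ones, but they stayed below the WT log phase range of *rep2*. *cdc10* had levels of 9.70, 9.72 and 9.70, a spread under that of any other group, against 9.16, 9.36 and 10.17 in WT (change 0.14, interval −0.30 to 0.59). *res1* changed by 0.49 (interval −0.61 to 1.58). *res2* had levels of 7.02, 7.04 and 7.10 on the arrays labelled *rpl32-2*, all 3 alike, and it differed by 1.04 from WT early stationary phase (limma adjusted p 0.356), but by only 0.14 once the weak WT array was left out. On arrays 1 and 2 the *cdc10* and *res2* levels were those of array 3, while *rep2* was higher than on array 3. A link of these levels to those of the targets was not tested.

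In early stationary phase, no difference of these genes between cells labelled *rpl32-1* and WT cells passed the test. Between them, 0 of the 10 genes were called and 0 of all probe sets (percent called 0), and 0 of the 10 passed at an unadjusted limma p under 0.05 with a 2-fold change, against 5 or 0.17% of all probe sets. The targets changed by −0.21 (*cdt1*) to 0.55 (*cdc18*), with a median of 0.07 against 0.00 over all probe sets. The 1 pair of arrays in the same set, array 1 labelled *rpl32-1* and WT array 2, had all 6 targets higher on the deposited scale, with a median difference of 0.90 against −0.03 over all probe sets and no replicate check. The intervals leave room for change: that of *cdc18* ran from −0.42 to 1.53, and that of *cdt1* from −1.61 to 1.19. *cdc18* had levels of 7.88, 7.26 and 7.83 on the arrays labelled *rpl32-1*, all just above its WT range. The top of that range was WT array 3, on which *cdc18* was not above background. It was the only 1 of the 10 genes with no overlap, where 2.96% of all probe sets were higher without overlap. *cig2* had levels of 9.69, 7.85 and 8.0, of which the first lay above the WT range and the others near its low end.

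Set against each other in early stationary phase, the arrays labelled *rpl32-1* and *rpl32-2* differed by −2.14 (SE 0.66) for *cdt1*, by −1.90 (SE 0.42) for *cig2*, by −1.65 (SE 0.46) for *cdc18* and by −1.04 (SE 0.29) for *rep2*. The limma adjusted p was 0.148 for *cdt1* and 0.137 for the other three, and no gene was called (percent called 0). At an unadjusted limma p under 0.05 with 2-fold, 7 of the 10 passed, against 66 or 2.25% of all probe sets. Only *cig2* and *rep2* did not overlap between the groups, as was so for 7.59% of all probe sets in this direction. Without array 3 labelled *rpl32-2*, 7 of the 10 genes were called. That array stood apart by the target levels themselves, so this count is not an independent test. The 1 pair of arrays in the same set, array 1 labelled *rpl32-1* and array 3 labelled *rpl32-2*, had a median target difference of 0.06 on the deposited scale.

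**Figure D3:**
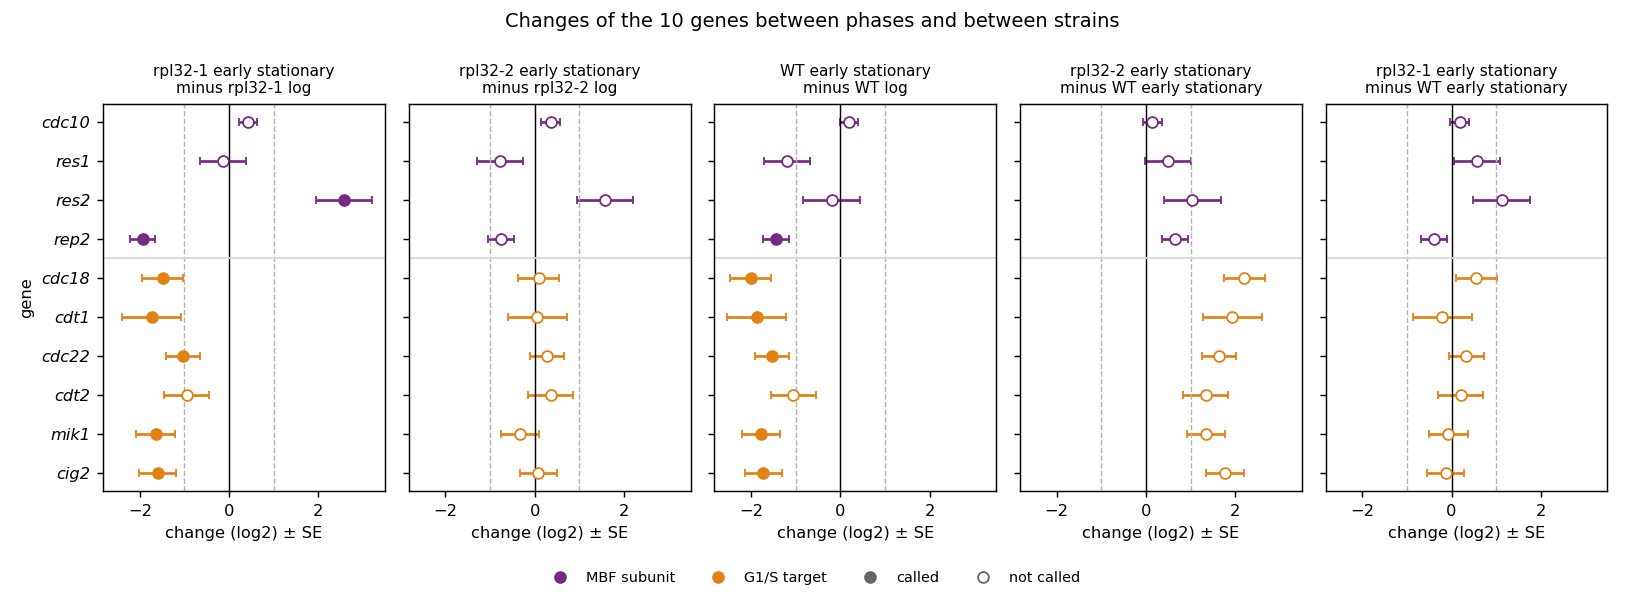
Change (log2) with its SE for the 10 genes in 5 comparisons, each the first named group minus the second. Filled points are called (limma adjusted p under 0.05 and at least 2-fold, dashed lines), and open points are not. Targets lie near 0 in the panel for the arrays labelled *rpl32-2* between phases and below 0 in the other panels that compare phases.

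In log phase no difference of the targets from WT cells beyond the spread between arrays was detected for either plasmid. On the arrays labelled *rpl32-1* they changed by −0.35 (*cdt1*) to 0.11 (*cdt2*) relative to WT, and on the arrays labelled *rpl32-2* by −0.18 (*cdc22*) to 0.11 (*cdc18*). All target groups overlapped, and 0 of the 10 genes and 0 of all probe sets were called in either comparison (percent called 0). At an unadjusted limma p under 0.05 with 2-fold, 19 probe sets (0.647%), *res2* among them, passed in the first comparison and 5 (0.17%) in the second, where none of the 10 genes did. Array by array, the targets had median differences of −0.45, −0.23 and 0.21 from the WT log phase mean on arrays 1, 2 and 3 labelled *rpl32-1*, of which array 3 was the weak one. In the 1 pair of the same set, array 1 labelled *rpl32-1* and WT log phase array 1, all 6 targets were lower on the deposited scale, with a median difference of −0.44 against −0.03 over all probe sets and no replicate check. The intervals of *cdc18* ran from −0.94 to 1.01 for the arrays labelled *rpl32-1* and from −0.86 to 1.09 for those labelled *rpl32-2*.

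*res2*, the gene of a DNA-binding subunit, had levels of 5.54, 4.80 and 3.35 on the log phase arrays labelled *rpl32-1*, against 5.84, 6.36 and 6.41 in WT log phase. The groups did not overlap, as was so for 10.6% of all probe sets in this direction. The change of −1.64 (SE 0.63) had a limma adjusted p of 0.802, and *res2* was above background on none of the 3 arrays, so the size of the difference is not measured and no fold is given. Without array 3 of the group, the weak one, the change was −1.04. The log phase arrays labelled *rpl32-2* had *res2* levels of 5.0, 5.14 and 6.30, only 1 of them above background, and overlapped with WT (change −0.73, SE 0.63, limma adjusted p 0.961).

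Between phases, most of the targets and *rep2* fell in the cells labelled *rpl32-1*, and *res2* rose. Of the 10 genes 6 were called lower, *rep2* and all targets other than *cdt2*, and 1 was called higher, *res2*, where 11.1% and 11.7% of all probe sets were called lower and higher. *rep2* had levels of 8.60, 8.23 and 8.49 in early stationary phase, against 10.57, 10.25 and 10.32 in log phase, with the arrays of each phase close together. Its change was −1.94 (SE 0.29, limma adjusted p 9e-05), or 3.83-fold lower. *cdc18* changed by −1.49 (limma adjusted p 0.0139), *cdt1* by −1.73 (0.0389), *cdc22* by −1.03 (0.037), *mik1* by −1.65 (0.00542) and *cig2* by −1.60 (0.00553). *mik1* was above background on only 1 of the 3 early stationary arrays and 2 of the 3 log phase arrays, so its difference is not well measured. *cdt2* changed by −0.95 (SE 0.50, limma adjusted p 0.126). All 6 targets were lower without overlap, as were 35.2% of all probe sets.

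*res2* had levels of 7.07, 6.89 and 7.45 on the early stationary arrays labelled *rpl32-1*, all above background, against 5.54, 4.80 and 3.35 in log phase, none above it. The groups did not overlap, as for 27.6% of all probe sets in this direction. The change of the normalized values was 2.57 (SE 0.63, limma adjusted p 0.0038). As a bound, which was not itself tested, *res2* was at least 1.45-fold higher in early stationary phase. *cdc10* was 0.43 higher (SE 0.21, limma adjusted p 0.102). The array sets limit this comparison: no set held both phases of the cells labelled *rpl32-1*. With the sets as a block only *rep2* (−1.33, limma adjusted p 0.0245) and *res2* (1.88, limma adjusted p 0.00944) were called, and without log phase array 3, 5 of the 10 genes were.

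On the arrays labelled *rpl32-2*, 0 of the 10 genes were called between phases, where 5.72% of all probe sets were called higher and 6.09% lower. The targets changed by −0.34 (*mik1*) to 0.35 (*cdt2*), with a median of 0.08. *res2* had levels of 7.02, 7.04 and 7.10 in early stationary phase, against 5.0, 5.14 and 6.30 in log phase, a change of 1.57 (SE 0.63, limma adjusted p 0.0675) without overlap, as for 21.7% of all probe sets in this direction. *rep2* had levels of 9.96, 9.57 and 8.92 in early stationary phase, against 10.48, 10.11 and 10.13 in log phase, a change of −0.76 (SE 0.29, limma adjusted p 0.0562) without overlap, as for 25.5% of all probe sets in this direction. *cdc10* was higher without overlap too, by 0.36 (SE 0.21, limma adjusted p 0.206). *res1* was lower without overlap, by −0.78 (SE 0.51, limma adjusted p 0.262). The near-zero changes of the targets were means over unlike arrays: *cdt1* differed from its log phase mean upward on arrays 1 and 2 and downward on array 3. Array 3 and its partner in the same set, log phase array 3, differed by −0.76 in the median of the targets and by −1.30 for *cdt1* on the deposited scale.

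The phase changes of the strains were also compared directly. The change on the arrays labelled *rpl32-2* minus that in WT cells was 2.09 for *cdc18* (SE 0.65), 1.82 for *cdc22* (SE 0.54) and 1.81 for *cig2* (SE 0.59), each with a limma adjusted p of 0.376. For the arrays labelled *rpl32-1* the difference of phase changes lay between 0.10 (*cdt2*) and 0.52 (*cdc18*) over the targets, and was 2.77 for *res2* (SE 0.90, limma adjusted p 0.701), or 1.87 without WT early stationary array 3. In neither case was any of the 10 genes or of all probe sets called (percent called 0), while 108 (3.68%) and 62 (2.11%) of all probe sets passed at an unadjusted limma p under 0.05 with 2-fold. With early stationary array 3 labelled *rpl32-2* left out, 5 targets were called in the first of these comparisons, *cdt2* being the exception at a limma adjusted p of 0.0506. Since that array stood apart by the target levels themselves, these calls are not an independent test.

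Ordered by mean level, *cdc18*, *cdc22*, *cdt1*, *cdt2* and *cig2* were highest on the early stationary arrays labelled *rpl32-2*, but the ranges there overlapped with those of the next group. The 3 log phase groups followed, overlapping with each other for every target. WT cells and cells labelled *rpl32-1* in early stationary phase came last for all 6 targets, and for *mik1* the log phase groups came first. For *rep2* the 3 log phase groups came first, and for *res2* the early stationary groups labelled *rpl32-1* (mean 7.13) and *rpl32-2* (mean 7.05) did, with no overlap with WT log phase (mean 6.21), which was next. For *cdc10* the 3 early stationary groups had the 3 highest means (9.74, 9.70 and 9.56), against 9.32 to 9.37 in log phase, and neighbours in that order all overlapped.

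The 6 targets varied together across the arrays. Over the 18 arrays the 15 pairs of targets had Pearson correlations of 0.72 to 0.96 (median 0.91), and of 0.44 to 0.97 (median 0.79) after the mean of each group was taken off. *cig2* was the target least like the other five after group means were taken off (r = 0.58). Of the factor's own genes, *rep2* was the most like the mean of the targets (r = 0.85), and *res1* (r = 0.24), *cdc10* (r = −0.10) and *res2* (r = −0.34) were less so. Outside the 10 genes, those most like the mean of the targets were *slp1* (r = 0.97), *adg3* (r = 0.97), *rid1* (r = 0.96), *adg2* (r = 0.95) and *uap56* (r = 0.94). After group means were taken off they were *adg3* (r = 0.93), *adg1* (r = 0.93), *slp1* (r = 0.92), *cdc31* (r = 0.92) and *rer1* (r = 0.92). The order depended on the measure: by Spearman correlation over the 18 arrays, *slp1* and *rid1* stayed among the first 5 and no *adg* gene did. These correlations describe 18 arrays that share groups and array sets, and no test was made of them.

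Of 15 other probe sets for MBF regulators and targets, 3 were called between WT phases, all of them lower, where 9.09% of all probe sets were called lower and 9.74% higher: *pol1*, for DNA polymerase alpha (−1.81, limma adjusted p 0.038), *mcl1*, for a partner of that polymerase (−1.20, 0.000211), and the corepressor gene *yox1* (−1.28, 0.038). The weak WT early stationary array 3 was the lowest of its group for each of these called genes. *pol1* had levels of 7.07, 7.44 and 4.03 in early stationary phase, against 8.03, 8.04 and 7.90 in log phase. For *yox1* they were 7.32, 7.24 and 5.27, against 7.57, 8.06 and 8.03. For *mcl1* they were 8.68, 8.77 and 7.92, against 9.56, 9.76 and 9.66. *ctp1*, for a factor in DNA end resection, changed by 0.81 (limma adjusted p 0.0129), under 2-fold. The median of the 15 was −0.34. On the early stationary arrays labelled *rpl32-2*, 12 of the 15 were above the WT mean and 0 were called. *ams2*, for a histone gene activator, differed by 0.94 (limma adjusted p 0.0916), *rad21*, for a cohesin subunit, by 0.94 (0.109), *mrc1*, for a replication checkpoint mediator, by 0.85 (0.115) and *yox1* by 1.44 (0.12). The WT mean of *yox1* again held the low value of array 3. *nrm1*, the other corepressor gene and itself an MBF target, had levels of 10.29, 10.10 and 9.06 on the arrays labelled *rpl32-2*, against 9.27, 9.05 and 9.34 in WT early stationary phase. The split of arrays 1 and 2 from array 3 thus held for *nrm1* too (change 0.60, limma adjusted p 0.201), a gene picked after its values were seen. *yox1* had 8.70, 7.94 and 7.50 on these arrays, so its array 2 lay nearer to array 3 than to array 1. The medians of the 15, relative to the WT early stationary mean, were 0.88, 0.55 and 0.23, beside 2.29, 1.91 and 0.37 for the 6 targets.

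Of 21 probe sets for genes whose products work with those of the targets, 5 were called higher and 0 lower between WT phases, against 9.74% and 9.09% of all probe sets. Among them were *spd1*, the ribonucleotide reductase inhibitor (1.62, limma adjusted p 1.04e-05), *puc1*, a cyclin (1.65, 0.000162), *wee1*, the kinase related to Mik1 (1.44, 0.000434), and *cds1*, the replication checkpoint kinase (1.19, 0.0013). On the early stationary arrays labelled *rpl32-2*, 0 of the 21 were called and their median was −0.09. Of 35 probe sets of the replication machinery, 7 were called lower and 0 higher between WT phases, against 9.09% and 9.74% of all probe sets, *mcm4* of the helicase by −1.41 (limma adjusted p 5.93e-05) and *orc5* of the origin complex by −1.03 (3.78e-05). Against WT early stationary phase their median was 0.19, 0.05 and 0.09 on the 3 arrays labelled *rpl32-2*, beside 2.29, 1.91 and 0.37 for the targets.

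Other genes split the early stationary arrays as the targets did. The 8 probe sets for cell separation had medians of 1.97, 2.0 and 0.38 on the early stationary arrays labelled *rpl32-2*, relative to the WT early stationary mean. Of the 8, *adg1*, for a cell surface glycoprotein, had levels of 11.94, 11.42 and 6.91 there, against 6.45, 5.82 and 7.08 in WT early stationary phase and 11.57, 11.62 and 11.54 in WT log phase. Its change against WT early stationary phase was 3.64 (SE 0.93, limma adjusted p 0.0962), and arrays 1 and 2 were at the log phase level. The 13 histone probe sets had medians of 0.85, 0.72 and −0.09 on the same arrays. Of the 8, 6 were called lower and 1 higher between WT phases, and of the 13 histone probe sets 1 was called lower and 0 higher, where 9.09% of all probe sets were called lower and 9.74% higher. The count for the histones was thus near the background.

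By their median, genes of the growth state split the same arrays in the other direction. The 11 probe sets for glucose derepression and stationary phase had medians of −0.82, −0.42 and −0.08 on arrays 1, 2 and 3 labelled *rpl32-2*, relative to the WT early stationary mean. *fbp1*, for the gluconeogenic enzyme fructose-1,6-bisphosphatase, changed by 6.44 between WT phases (limma adjusted p 2.57e-05) and differed by −2.11 (SE 0.77, limma adjusted p 0.149) between the early stationary arrays labelled *rpl32-2* and WT. Of the 11, 2 differed upward in that comparison. *pyk1* was 1 of them (0.61, limma adjusted p 0.0962), and its adjusted p was the smallest of the list. The growth state list still stood above its WT log phase mean on all 3 early stationary arrays labelled *rpl32-2*, by medians of 1.57, 2.10 and 2.42. Of its 11 members 9 were called higher and 0 lower between WT phases, against 9.74% and 9.09% of all probe sets. The part of growth state in the target levels was not tested.

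**Figure D4:**
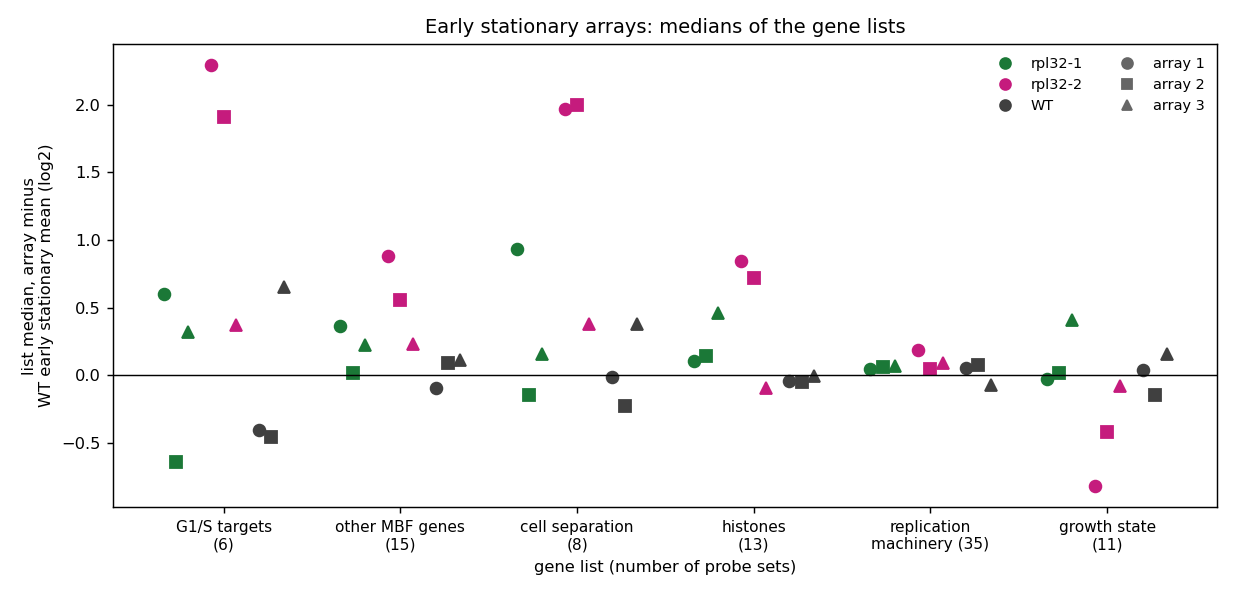
Median of each gene list on each early stationary array, as a difference (log2) from the WT early stationary mean, with the number of probe sets in brackets. Arrays 1 and 2 labelled *rpl32-2* stand above the rest for G1/S targets (2.29 and 1.91) and for cell separation (1.97 and 2.0), stand below the rest for growth state (−0.82 and −0.42), and lie near 0 for the replication machinery.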

How the data were processed

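Per the labels and the methods, the deposited log2 values came from RMA (robust multi-array average) in Partek, run by the authors. The grouping of arrays in that step was not given in the sources read. All 18 arrays were used, and the labels call the 3 of a group biological replicates. Their number limits the precision. The 10 genes and all gene lists were chosen with earlier results of these data known, by symbol in the array annotation (113 symbols updated from RefSeq). Of 10928 probe sets, the 2937 with a *S. pombe* gene name were tested. Their values were quantile normalized, and limma 3.58.1 (R 4.3.3) was fitted with a mean for each of 6 groups (12 residual degrees of freedom), with p values adjusted by Benjamini and Hochberg over the 2937. Background was the percentile 95 of the *S. cerevisiae* probe sets of an array. Where a gene was above background on no array of a group, its level there was replaced on each array by the higher of its own value and the lowest *S. pombe* value above background, and the fold is then a bound. Array sets were formed at a mean difference of 0.2 (log2) between ranked values. The genes named are the 10, from every other list at most 4, those of smallest adjusted p in the comparison at hand, the 5 most like the targets, and both *rpl32* paralogs. *nrm1* was named outside this rule, after its values were seen. Medians, correlations and counts came from Python 3.11.15 (numpy 2.4.6, pandas 2.3.3), and figures from matplotlib 3.10.9. The fits were tested on simulated data. The alternatives were other normalizations, a replicate block, the array sets as a block, array weights, other variance models and filters, the methods' t-test and each array left out. No coordinates or sequences are given.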

Additional observations from a re-analysis of the deposited data

Results flagged for a closer look

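For *res2*, the arrays labelled *rpl32-1* lay above the WT mean in early stationary phase and below it in log phase, all 3 arrays in each phase. The phase change on these arrays minus that in WT cells was 2.77 (limma adjusted p 0.701), so the difference did not pass its test. The WT early stationary mean rests on array 3, on which *res2* was not above background: without it the early stationary difference was 0.22 in place of 1.12, and the difference of phase changes 1.87. These opposite directions in the 2 phases are what marked it, and *res2* was above background on all 3 early stationary arrays labelled *rpl32-1* and on none of their log phase arrays.

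For *cdc22*, the arrays labelled *rpl32-2* lay above the WT mean in early stationary phase and below it in log phase, and the difference of phase changes was 1.82 (limma adjusted p 0.376). *cdc10* had the same pattern of signs with a difference of 0.16 (limma adjusted p 0.814). Both were marked for the same reason, and neither difference passed its test.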

How the results depend on the processing

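Of the 10 genes, 6 were called between WT phases. This count was 7 with the array sets as a block and with array weights, 3 with the methods' t-test after Benjamini-Hochberg adjustment, 3 of the 5 genes above background on all arrays, and 1 on the deposited values. For the cells labelled *rpl32-1* between phases, 7 were called, against 3 above background, 2 with the array sets as a block (on quantile normalized and on deposited values), 4 with the adjusted t-test and 0 as deposited. With the sets as a block, *cdc22* turned to 0.039 (as deposited, *mik1* turned to 0.27), and the cause was not tested.

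On the arrays labelled *rpl32-2* between phases, 0 were called, against 1 with array weights, median centring, only the groups compared, the unadjusted t-test, deposited values with the sets as a block, or without both weakest arrays, and 2 with the sets as a block. Array weights gave 7 calls for *rpl32-2* against WT and for *rpl32-1* against *rpl32-2* in early stationary phase and for the difference of phase changes of *rpl32-2*, in place of 0. They gave 1 for both log phase comparisons with WT and for the difference of phase changes of *rpl32-1*, in place of 0. The unadjusted t-test gave 1 for *rpl32-2* against WT and for *rpl32-1* against *rpl32-2* in early stationary phase. The t-test was not run on differences of phase changes.

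With 1 array left out at a time, the calls ran from 5 to 7 between WT phases, 4 to 7 for *rpl32-1* between phases, 0 to 1 for *rpl32-2* between phases, 0 to 6 for *rpl32-2* against WT and 0 to 7 for *rpl32-1* against *rpl32-2* in early stationary phase, and 0 to 5 for the difference of phase changes of *rpl32-2*. The 6, the 7 and the 5 came without early stationary array 3 labelled *rpl32-2*, and the 4 without early stationary array 2 labelled *rpl32-1*. The former array stood apart by the target levels themselves, so the 6, the 7 and the 5 are not independent tests. All other comparisons stayed at 0.

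Over all probe sets, the deposited values called 53, 115 and 95 between phases in WT, *rpl32-1* and *rpl32-2*, against 553, 669 and 347 after quantile normalization, and array weights called 170 in place of 0 for *rpl32-2* against WT in early stationary phase. Without the 2-fold minimum the 3 phase comparisons called 1289, 1478 and 1008.

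Arrays with the same replicate number share no stated batch, and their deviations from the group means correlated from −0.41 to 0.47 over 45 pairs. With the replicate number as a block, the calls were 7 in WT and 6 in *rpl32-1* between phases, and 0 in the other comparisons. The alternative on promoter motifs was not run, as promoters were not analysed here. *res2* and *mik1* were near background on 6 arrays each, which limits their folds.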
